A study of Mus musculus with 11 samples.

Results

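The 10 astrocyte genes described here were given by symbol, and the rule that names them uses no measured value, although the set was proposed with earlier results of these data known. Of these, 6 are genes that astrocytes raise when they become reactive (Gfap, Vim, Serpina3n, Cd44, Osmr and C4b) and 4 are general astrocyte genes read beside them (Aqp4, Aldh1l1, Gja1 and Aldoc). They were found by symbol among 24391 genes in the count table of the heterozygous round and 24015 genes in that of the homozygous round, and all 10 were in both. Microdissected hippocampus of mice at P32 was profiled by RNA-seq in 11 mice on the C57BL/6N background, with 1 library per mouse. In the heterozygous round, 4 mice with 1 deleted copy of the 1b interval of Scn1a (1b+/-, 3 males and 1 female) were read beside 3 WT males as paired-end reads of 150 bases. In the homozygous round, 2 mice with both copies deleted (1b-/-, 1 male and 1 female) were read beside 2 WT females as single-end reads of 50 bases. Both mutant groups carry the same Cas9-made deletion from 1 line, in every cell of the body, and the tissue held all hippocampal cell types, so a lower level can mean fewer cells of a type or less RNA per cell and these cannot be told apart.

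Astrocytes are the glial cells that clear glutamate and potassium from around synapses, share metabolites through gap junctions and wrap blood vessels with their endfeet. After seizures, injury or inflammation they become reactive: they build more intermediate filament, secrete protease inhibitors and complement proteins, and respond to cytokines of the interleukin-6 family through STAT3. In the hippocampus, reactive astrocytes are a known accompaniment of epilepsy, while many general astrocyte genes keep their level or fall.

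In these mice, Serpina3n and Gfap were several times higher in both 1b-/- mice than in the 2 WT mice of their round, C4b and Vim were higher by smaller amounts, and the 4 general genes differed little. Of the 10 genes, 1 passed the test in the homozygous comparison, Serpina3n, beside 3.58% of all genes tested, and Gfap lay just outside it. No reactive gene passed the test in 1b+/- mice, where 0 of all 14630 genes tested passed. The changes of Serpina3n, Gfap and C4b differed between the 2 mutants by a direct test, which 27.3% of all genes tested also passed.

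The WT mice of the homozygous round stood apart from all other libraries, and every result of that round rests on them. Total counts ran from 20667122 to 36145161 per library, with both 1b-/- libraries deeper than both WT libraries of their round. Summed markers of striatum came to 3294 to 7780 CPM (a gene's counts scaled to a common library size, per library) in those 2 WT mice, 281 to 361 CPM in the 1b-/- mice and 309 to 475 CPM in WT mice of the heterozygous round. Markers of dentate granule cells, the principal neurons of the dentate gyrus, summed to 63.0 to 106.5 CPM in the WT mice of the homozygous round, against 271 to 285 CPM in the 1b-/- mice. All 11 libraries are labelled hippocampus, and those 2 held fewer hippocampal neuron markers and more striatum markers than the other 9. Scn1a, the targeted gene, was at 26.3 and 16.7 CPM in the 1b-/- mice and at 134 and 173 CPM in their WT mice, a log2 fold change of -2.83 (SE 0.27, edgeR adjusted p = 0.0211). Without the first or the second of those WT mice it was -3.00 and -2.64. These fits leave 1 WT library, so only the size of change is given. In the heterozygous round its log2 fold change was -0.47 (SE 0.15, edgeR adjusted p = 0.303). General astrocyte RNA was present in every library: 25 other general astrocyte genes summed to 10840 to 14620 CPM in the 1b-/- mice and to 13240 to 14160 CPM in their WT mice.

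Promoter sequence is shown for the pair of reactive genes with the largest changes and for the general gene with the highest level, because the STAT3 pathway that drives astrocyte reactivity acts through a short palindrome. RefSeq windows from 250 bases before to 50 after each transcription start, in the GRCm38.p6 build, were held for 8 of the 10 genes. There were 9 such windows, so a gene could have more than 1. Positions count from 1 at the start site, with -1 just before it. The motif searched was TTCNNNGAA, which reads the same on both strands and was found in 8.3% of all 32851 windows. Among all 8 genes with a window, it was found only in Gfap and Aldoc. Capitals mark its matches. The stretches lie at chr11:102897194-102897300 on the minus strand (Gfap), chr12:104406608-104406707 on the plus strand (Serpina3n) and chr11:78324068-78324197 on the plus strand (Aldoc), each written 5′ to 3′ along its gene.
Gfap: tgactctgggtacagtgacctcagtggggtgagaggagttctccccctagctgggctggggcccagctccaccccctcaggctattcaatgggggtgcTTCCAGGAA
Serpina3n: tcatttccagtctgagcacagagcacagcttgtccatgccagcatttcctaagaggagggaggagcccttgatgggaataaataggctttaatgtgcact
Aldoc: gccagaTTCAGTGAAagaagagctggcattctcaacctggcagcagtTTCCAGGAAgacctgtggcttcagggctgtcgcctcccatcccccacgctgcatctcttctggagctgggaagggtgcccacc
Gfap held 1 match, across its start site, from position -2 to 7, and Aldoc held matches from -124 to -116 and from -83 to -75. The Aldoc stretch is from a window that held matches, and an Aldoc window without a match would not be shown. The Serpina3n window held none, and sequence outside these windows was not searched. A separate motif, the TATA box letters TATAAA, was in 13.6% of windows and among these genes was found once, in Vim from -32 to -27. These are matches of letters and not measured binding.

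Serpina3n (mm9 chr12:105644939-105652539, plus strand) encodes a secreted inhibitor of serine proteases and is among the genes most strongly raised in reactive astrocytes. It was at 78.6 and 169 CPM in the 1b-/- mice and at 9.12 and 12.4 CPM in the WT mice of their round. Both 1b-/- mice were above both WT mice, and the lower of them was far above the higher WT mouse. The group means were 123.8 ± 63.9 CPM (SD, n = 2) and 10.7 ± 2.29 CPM (SD, n = 2). Serpina3n rose by a log2 fold change of 3.53 (SE 0.42, 95% interval 2.46 to 4.60), or 11.5-fold with an interval of 5.49 to 24.2, and passed the test (quasi-likelihood test of edgeR, p adjusted over all genes by Benjamini-Hochberg, adjusted p = 0.0283). By fold change it stood in place 47 of 14838 genes tested. With the first or the second WT mouse left out, the log2 fold change was 3.33 and 3.76. With the first or the second 1b-/- mouse left out it was 3.98 and 2.87. Each of these fits leaves 1 library in a group, assumed to vary like the other group, so only the size of change is given. The raw counts, 2768 and 5391 in 1b-/- mice and 202 and 264 in WT mice, set counting error well below the spread between mice. Serpina3n belongs to a cluster of similar genes, so its count may hold reads of its neighbours.

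Gfap (mm9 chr11:102748650-102762226, minus strand) encodes the intermediate filament protein that defines astrocytes and grows most visibly in reactive ones. Its level was 471 and 853 CPM in the 1b-/- mice and 206 and 158 CPM in their WT mice, so the groups did not overlap. The group means were 662 ± 270 CPM and 182 ± 33.6 CPM (SD, n = 2 each). The log2 fold change was 1.86 (SE 0.32, 95% interval 1.05 to 2.68), which is 3.64-fold with an interval of 2.07 to 6.42. With an edgeR adjusted p of 0.0504 it fell just outside the threshold of 0.05, and its place by fold change was 244 of 14838. The log2 fold change was 2.23 and 1.37 without the first or the second 1b-/- mouse. It was 2.07 and 1.69 without the first or the second WT mouse, and each of these fits leaves 1 library in a group. A noncoding gene, Gm17536, overlaps Gfap on the other strand, and no source used here states whether counting used the strand.

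C4b (mm9 chr17:34865325-34880827, minus strand) encodes complement component C4, which marks surfaces for complement attack and is made by reactive astrocytes among other cells. It was at 28.8 and 40.8 CPM in the 1b-/- mice and at 21.0 and 15.2 CPM in their WT mice. The groups did not overlap, and the log2 fold change of 0.94 (SE 0.25, 95% interval 0.31 to 1.58) did not pass the test (edgeR adjusted p = 0.0985). C4a, the neighbouring and nearly identical copy, went the other way in level: 1.62 and 2.41 CPM in 1b-/- mice against 3.57 and 3.51 CPM in WT mice, a log2 fold change of -0.81 (SE 0.36, edgeR adjusted p = 0.223). Reads that match both copies cannot be assigned with certainty, so both values are uncertain.

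Vim (mm9 chr2:13495554-13504453, plus strand) encodes vimentin, the filament protein that partners Gfap in reactive astrocytes and is also made by vessel and ependymal cells. It was at 41.9 and 66.5 CPM in the 1b-/- mice and at 35.4 and 33.8 CPM in their WT mice. Both 1b-/- mice were above both WT mice, 1 of them only slightly. The log2 fold change was 0.65 (SE 0.24, 95% interval 0.05 to 1.25), and it did not pass the test (edgeR adjusted p = 0.166). The change was 0.94 without the first 1b-/- mouse and 0.28 without the second, each with 1 mutant library left.

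Osmr and Cd44 had the lowest levels of the 10 genes. Osmr (mm9 chr15:6763577-6824313, minus strand) encodes the receptor subunit for oncostatin M, a cytokine of the interleukin-6 family. It was at 5.03 and 6.18 CPM in the 1b-/- mice and at 4.25 and 4.03 CPM in their WT mice, with a log2 fold change of 0.44 (SE 0.25, 95% interval -0.20 to 1.08, edgeR adjusted p = 0.326). Its groups did not overlap, by a margin of less than 1 CPM. Cd44 (mm9 chr2:102651298-102741822, minus strand) encodes a cell-surface receptor for hyaluronan. It was at 10.9 and 5.02 CPM in the 1b-/- mice and at 5.19 and 3.32 CPM in their WT mice, so the groups overlapped, and its log2 fold change of 0.90 (SE 0.45, 95% interval -0.24 to 2.04) did not pass the test (edgeR adjusted p = 0.270). It was 0.24 and 1.35 without the first or the second 1b-/- mouse.

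**Figure D1:**
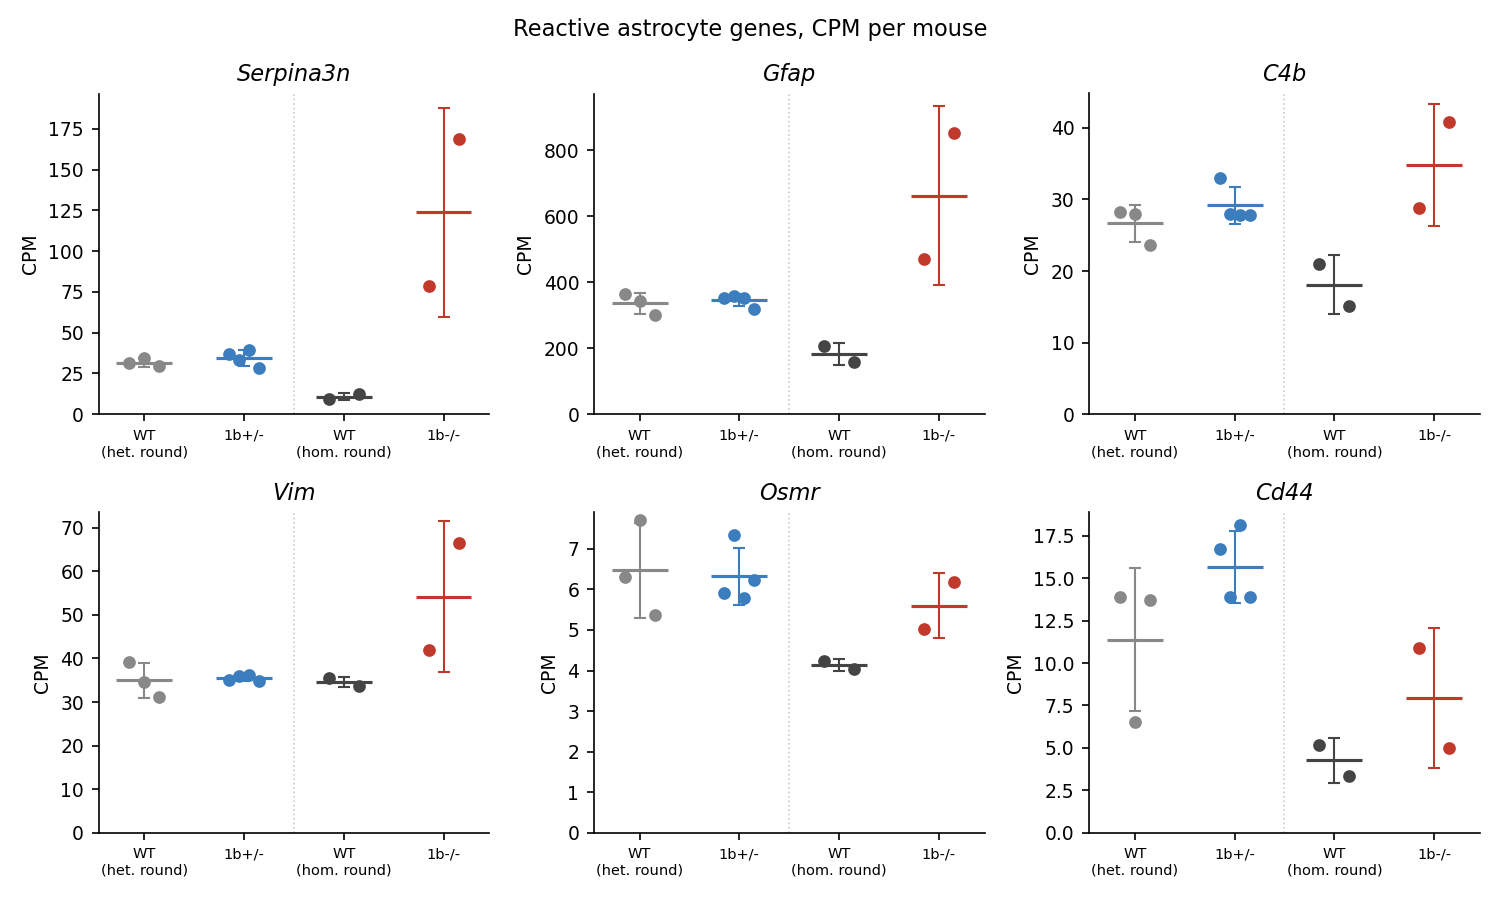
Level of each reactive astrocyte gene in CPM (linear axis from 0), 1 point per mouse, with the group mean as a horizontal line and 1 SD as the error bar, for the heterozygous round (3 WT and 4 1b+/- mice) and the homozygous round (2 WT and 2 1b-/- mice), which a dotted line separates. Serpina3n and Gfap are highest in the 1b-/- mice (78.6 and 169 CPM, 471 and 853 CPM) and lowest in the WT mice of the same round.

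Of the 4 general astrocyte genes, none passed the test. Aqp4 (mm9 chr18:15547903-15562193, minus strand), the water channel of the endfeet, was at 211 and 224 CPM in the 1b-/- mice and at 203 and 201 CPM in their WT mice. Its groups did not overlap, but the log2 fold change was 0.11 (SE 0.12, 95% interval -0.18 to 0.40, edgeR adjusted p = 0.586). Gja1 (mm9 chr10:56097106-56110225, plus strand), the main connexin of astrocyte gap junctions, was at 321 and 244 CPM in the 1b-/- mice and at 253 and 271 CPM in the WT mice. The 1b-/- values lay on either side of the WT values (log2 fold change 0.11, SE 0.17, 95% interval -0.33 to 0.54, edgeR adjusted p = 0.724).

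Aldoc (mm9 chr11:78136470-78141283, plus strand), a glycolytic aldolase, was at 1345 and 923 CPM in the 1b-/- mice and at 1120 and 1155 CPM in their WT mice. The 1b-/- values again lay on either side, with a log2 fold change of -0.01 (SE 0.23, 95% interval -0.58 to 0.56, edgeR adjusted p = 0.990). Aldh1l1 (mm9 chr6:90436421-90550197, plus strand), a folate enzyme used as a pan-astrocyte marker, was at 76.3 and 61.2 CPM in the 1b-/- mice and at 86.6 and 76.7 CPM in the WT mice. It was the only 1 of the 10 genes for which both 1b-/- mice were below both WT mice, and its log2 fold change was -0.25 (SE 0.16, 95% interval -0.65 to 0.15, edgeR adjusted p = 0.367). The intervals of the 4 general genes differ in width: that of Aqp4 is the narrowest and that of Aldoc the widest, so the size of change that was detectable differed between them. The plot of general astrocyte genes by mouse shows these levels on axes that start at 0.

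**Figure D2:**
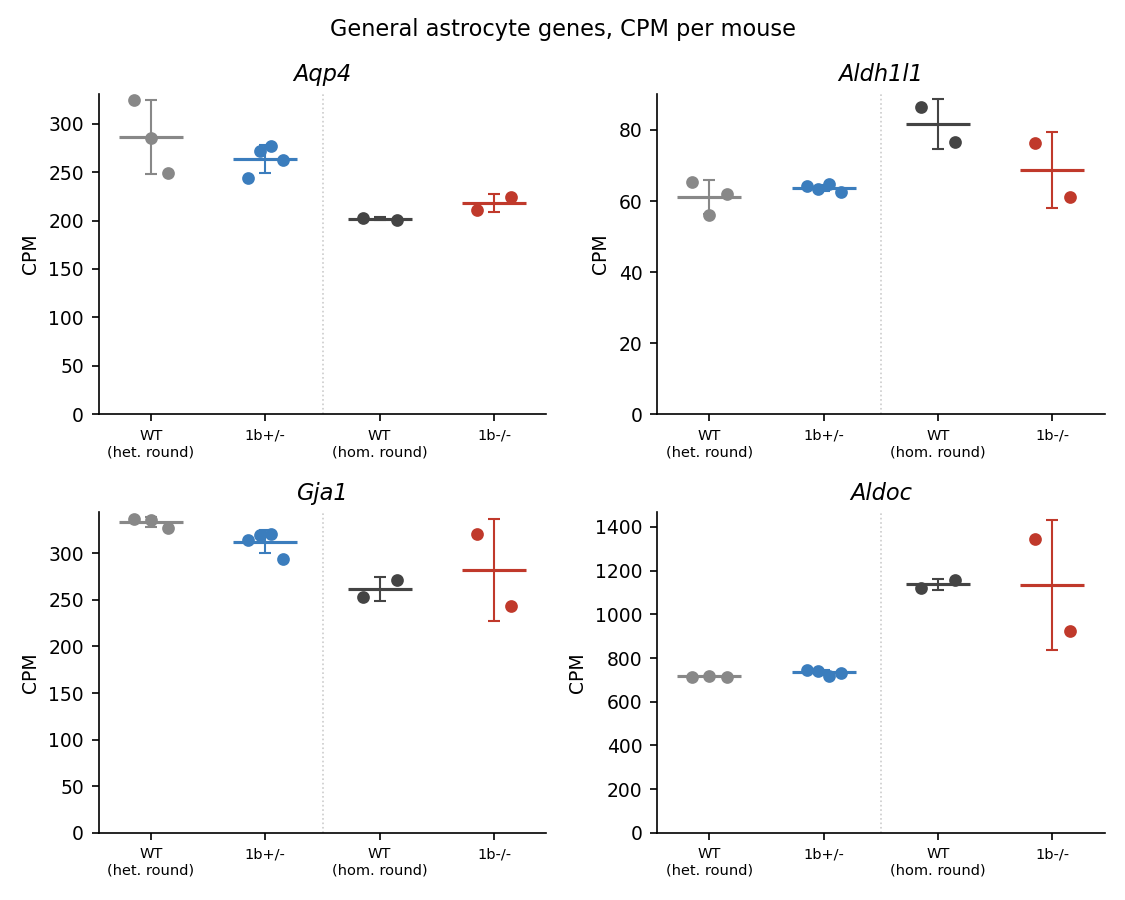
Level of each general astrocyte gene in CPM (linear axis from 0), drawn as for the reactive genes: 1 point per mouse, the group mean as a line, 1 SD as the error bar, and a dotted line between the rounds. Aldoc and Aldh1l1 sit higher, and Gja1 and Aqp4 lower, in the WT mice of the homozygous round than in the heterozygous round's WT mice.

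In the homozygous comparison, 1 of the 10 genes passed the test, against 3.58% of all 14838 genes tested, 2.06% higher and 1.52% lower. Without the first WT mouse, with 1 WT library left, none of the genes tested passed in edgeR, while 3861 had an unadjusted p under 0.05. At an unadjusted edgeR p under 0.05 there were 4 of 10, all of them reactive genes that were higher (Serpina3n, Gfap, C4b and Vim), against 13.6% of all genes higher at that level. Groups did not overlap for 7 of 10 genes, 6 above and 1 below, against a background of 59.7% of all genes (29.5% above and 30.2% below), which with 2 mice against 2 carries little information. The exact permutation test over mice cannot give a two-sided p below 0.333 at this size. The median log2 fold change was 0.92 over the 6 reactive genes and 0.05 over the 4 general genes, beside -0.0013 over all genes tested.

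The 2 1b-/- mice differed from each other. The second 1b-/- mouse, a female, held 2.15 times the Serpina3n level of the first, a male, 1.81 times its Gfap, 1.59 times its Vim, 1.42 times its C4b and 1.23 times its Osmr. For Cd44 the ratio was 0.461. Among general genes it was 1.06 for Aqp4, 0.802 for Aldh1l1, 0.759 for Gja1 and 0.686 for Aldoc. Thus the mouse with the higher level of 5 reactive genes had the lower level of 3 general genes. The second mouse also held more RNA of the markers of some other cells. Choroid plexus genes summed to 63.0 CPM in the first and 13290 CPM in the second. Meninges and fibroblast genes summed to 256 and 695 CPM, and ependymal genes to 25.7 and 71.7 CPM. Markers of others were lower in it: microglia genes summed to 647 and 534 CPM, and oligodendrocyte precursor genes to 568 and 514 CPM. Their part in the ratios was not tested, and sex, mouse and library cannot be told apart in this pair.

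In the heterozygous comparison none of the 10 genes passed the test, beside 0% of all 14630 genes tested (0 higher and 0 lower). At an unadjusted edgeR p under 0.05 there was 1 of 10, beside 1649 of all genes, and DESeq2 called 245 genes, none of the 10 among them. Gfap was at 352, 357, 353 and 319 CPM in the 1b+/- mice and at 363, 344 and 301 CPM in WT mice. The ranges overlapped almost wholly, and the log2 fold change was 0.04 (95% interval -0.11 to 0.19, edgeR adjusted p = 0.860). Serpina3n was at 36.8, 33.0, 39.5 and 28.2 CPM in 1b+/- mice and at 31.2, 34.5 and 29.5 CPM in WT mice. It too overlapped, with a log2 fold change of 0.11 (95% interval -0.13 to 0.36, edgeR adjusted p = 0.732). For both genes the interval lies below the whole interval of the homozygous comparison.

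C4b was at 33.0, 27.9, 27.9 and 27.9 CPM in 1b+/- mice and at 28.25, 28.04 and 23.7 CPM in WT mice, with a log2 fold change of 0.13 (95% interval -0.06 to 0.32, edgeR adjusted p = 0.611). Vim was at 34.8 to 36.2 CPM in 1b+/- mice and at 31.1 to 39.1 CPM in WT mice, and Osmr at 5.80 to 7.34 CPM and 5.38 to 7.72 CPM. In each of these the 1b+/- range overlapped the WT range. Their log2 fold changes were 0.02 for Vim (95% interval -0.14 to 0.18) and -0.03 for Osmr (95% interval -0.35 to 0.28).

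Cd44 was the reactive gene that differed most in 1b+/- mice. It was at 16.7, 13.9, 18.1 and 13.9 CPM in the 1b+/- mice and at 13.9, 6.53 and 13.7 CPM in the WT mice. All 4 mutants were above all 3 WT mice, but only just: with TMM over all libraries the fourth 1b+/- mouse (14.24 CPM) was below the first WT mouse (14.25 CPM). The log2 fold change was 0.46 (SE 0.23, 95% interval -0.06 to 0.98, edgeR adjusted p = 0.484), and it was 0.19 without the WT mouse at 6.53 CPM. The exact permutation p, two-sided and unadjusted for the 10 genes tested this way, was 0.0286, the smallest that 4 against 3 mice can give.

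Gja1 was the gene of the 10 that reached an unadjusted edgeR p under 0.05 in 1b+/- mice, as 11.3% of all genes did (edgeR adjusted p = 0.413). It was at 315, 320, 320 and 294 CPM in the mutants and at 337, 336 and 327 CPM in the WT mice, all mutants below all WT mice. The log2 fold change was -0.09 (SE 0.04), and the exact permutation p was again 0.0286. Aldoc was at 718 to 747 CPM in 1b+/- mice and at 714 to 718 CPM in WT mice, without overlap by 718.4 against 718.3 CPM, with a log2 fold change of 0.04 and an exact permutation p of 0.0571. With TMM over all libraries the Aldoc groups overlapped (737.7 CPM in the third 1b+/- mouse and 737.8 CPM in the second WT mouse). Aqp4 was at 244 to 277 CPM against 249 to 325 CPM, and Aldh1l1 at 62.6 to 64.7 CPM against 56.0 to 65.4 CPM, with log2 fold changes of -0.12 and 0.06. Groups did not overlap for 3 of the 10 genes, 2 above and 1 below, against a background of 10.9% of all genes (4.69% above and 6.25% below). The 2 above were Cd44 and Aldoc, whose groups overlapped on the common scale, which leaves Gja1.

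**Figure D3:**
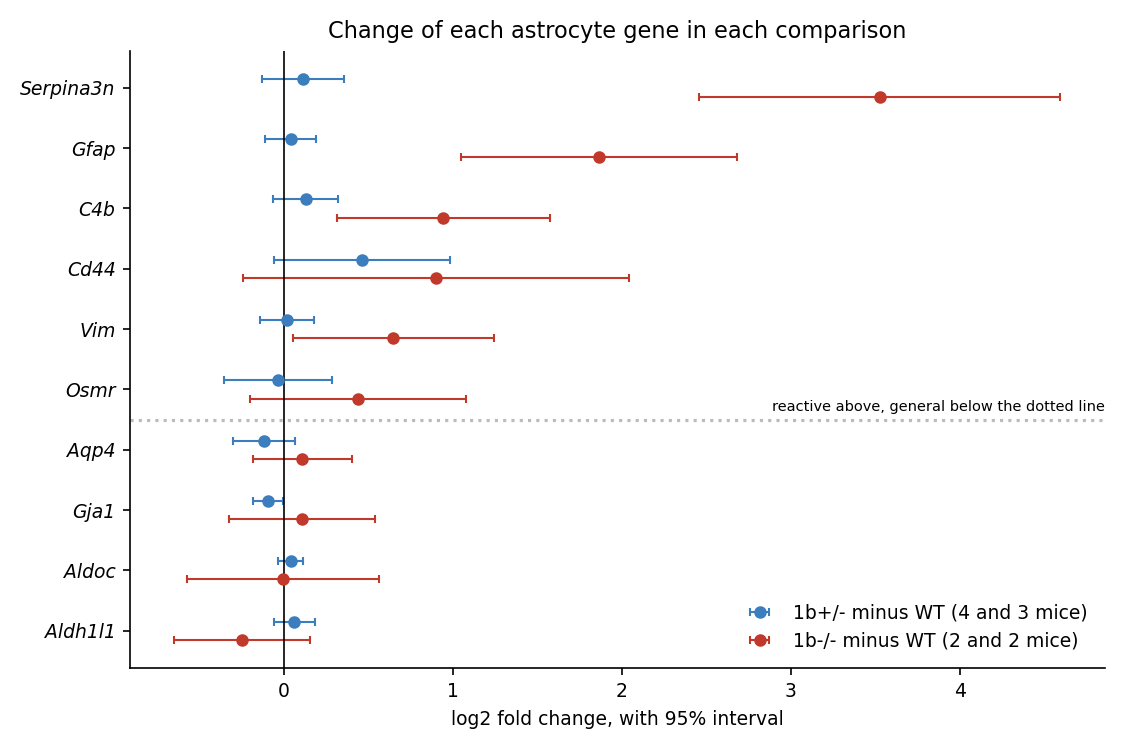
Log2 fold change of each of the 10 genes (points) with its 95% interval from edgeR (bars), for 1b+/- against WT mice (blue, 4 and 3 mice) and 1b-/- against WT mice (red, 2 and 2 mice), reactive genes above the dotted line and general genes below it. The red intervals of Serpina3n (2.46 to 4.60) and Gfap (1.05 to 2.68) lie above the blue intervals of the same genes, while the general genes cluster around 0 in both comparisons.

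A direct test of the difference between the genotypes was made in 1 fit of all 11 libraries, in which each group kept its own mean. Serpina3n changed more in 1b-/- than in 1b+/- mice by 3.40 on the log2 scale (SE 0.38, edgeR adjusted p = 3.3e-04). Gfap did so by 1.81 (SE 0.28, edgeR adjusted p = 0.00152), and C4b by 0.80 (SE 0.23, edgeR adjusted p = 0.0262). Vim differed by 0.62 (SE 0.21) and lay just outside the threshold (edgeR adjusted p = 0.0554). Thus 3 of 10 genes passed, all reactive and all in the same direction, while 27.3% of all 14905 genes passed and 14.3% passed in that direction. The C4b difference was 0.54 to 1.06 with 1 library left out, and it did not pass when any of 5 single libraries was left out: the second WT mouse of the homozygous round, the second 1b-/- mouse, the second 1b+/- mouse or either of the first 2 WT mice in the heterozygous round (edgeR adjusted p up to 0.1004). The test subtracts each round's own WT mice, so it takes in the WT mice that stood apart.

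For the other 6 genes the difference did not pass. It was 0.46 for Osmr (edgeR adjusted p = 0.183), 0.43 for Cd44 (0.567), 0.22 for Aqp4 (0.260), 0.19 for Gja1 (0.336), -0.05 for Aldoc (0.854) and -0.32 for Aldh1l1 (0.115).

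Because the WT mice of the homozygous round stood apart, the levels were set beside each other over all 4 groups on 1 common scale (TMM over all libraries). This crosses rounds that differ in read length and pairing, so round and group cannot be told apart in it. On this scale mean Serpina3n was 32.6 CPM in the heterozygous round's WT mice, 35.3 CPM in 1b+/- mice, 10.6 CPM in the WT mice of the homozygous round and 120.8 CPM in 1b-/- mice. Mean Gfap followed the same order, at 345, 355, 179 and 647 CPM. For both genes the WT mice of the homozygous round were the lowest group as well as the 1b-/- mice the highest.

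Against the WT mice of the other round, the 1b-/- mice were higher in Serpina3n by 1.89 on the log2 scale (SE 0.26, edgeR adjusted p = 1.4e-04), compared with 3.53 against their own WT mice. Gfap was higher by 0.91 (SE 0.20, edgeR adjusted p = 0.00284), compared with 1.86, and Vim by 0.56 (SE 0.15, edgeR adjusted p = 0.0106). C4b was at 0.31 and did not pass (edgeR adjusted p = 0.134). Cd44 and Osmr turned to -0.58 and -0.28 and did not pass (edgeR adjusted p = 0.211 and 0.1995). In this comparison 52.2% of all genes passed (25.6% higher and 26.5% lower), so a call here sets few genes apart. Among general genes, the log2 difference was 0.60 for Aldoc, -0.47 for Aqp4 and -0.31 for Gja1 (edgeR adjusted p = 0.00215, 0.0027 and 0.0279), while Aldh1l1 was at 0.10 (0.4205). The comparison was added after the data were seen.

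To compare the genes with each other, levels were divided by exon length (CPM per kilobase of exon, RPKM, on the common scale). In WT mice of the heterozygous round the order was Aldoc at 225, Gja1 at 110.3, Gfap at 81.8, Aqp4 at 55.3, Serpina3n at 15.8, Vim at 15.4, Aldh1l1 at 13.9, C4b at 4.81, Cd44 at 1.71 and Osmr at 1.37 RPKM. In that order Serpina3n, Vim and Aldh1l1 overlapped over mice, as did Cd44 and Osmr. In WT mice of the homozygous round, Gfap was at 42.4 and Serpina3n at 5.12 RPKM, and in 1b-/- mice Gfap reached 153.3 and Serpina3n 58.5 RPKM. Gfap was thus above Gja1 in 1b-/- mice (89.0 RPKM) and below it in the other 3 groups, and Aldoc was the highest of the 10 genes in each group.

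The balance of the gene groups was read per mouse as the mean log2(CPM + 0.5) of the 6 reactive genes minus that of the 4 general genes. It was -3.84 and -4.02 in the WT mice of the homozygous round and -2.94 and -2.25 in the 1b-/- mice. In the heterozygous round it was -3.03, -3.07 and -3.09 in WT mice and -2.84, -2.92, -2.88 and -2.98 in 1b+/- mice. Within each round the mutants were above the WT mice, by 1.33 in the homozygous round and by 0.158 in the heterozygous round. The first 1b-/- mouse, at -2.94, lay within the range of the 1b+/- mice. With Cd44 and Osmr left out, the 1b+/- values (-1.97 to -2.15) overlapped the WT values (-2.09 to -2.26), and the gap in means was 0.102. With medians over genes in place of means, all 1b+/- mice (-3.29 to -3.01) were above all WT mice (-3.46 to -3.30). No p is given, because the genes were chosen with earlier results of these data known.

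**Figure D4:**
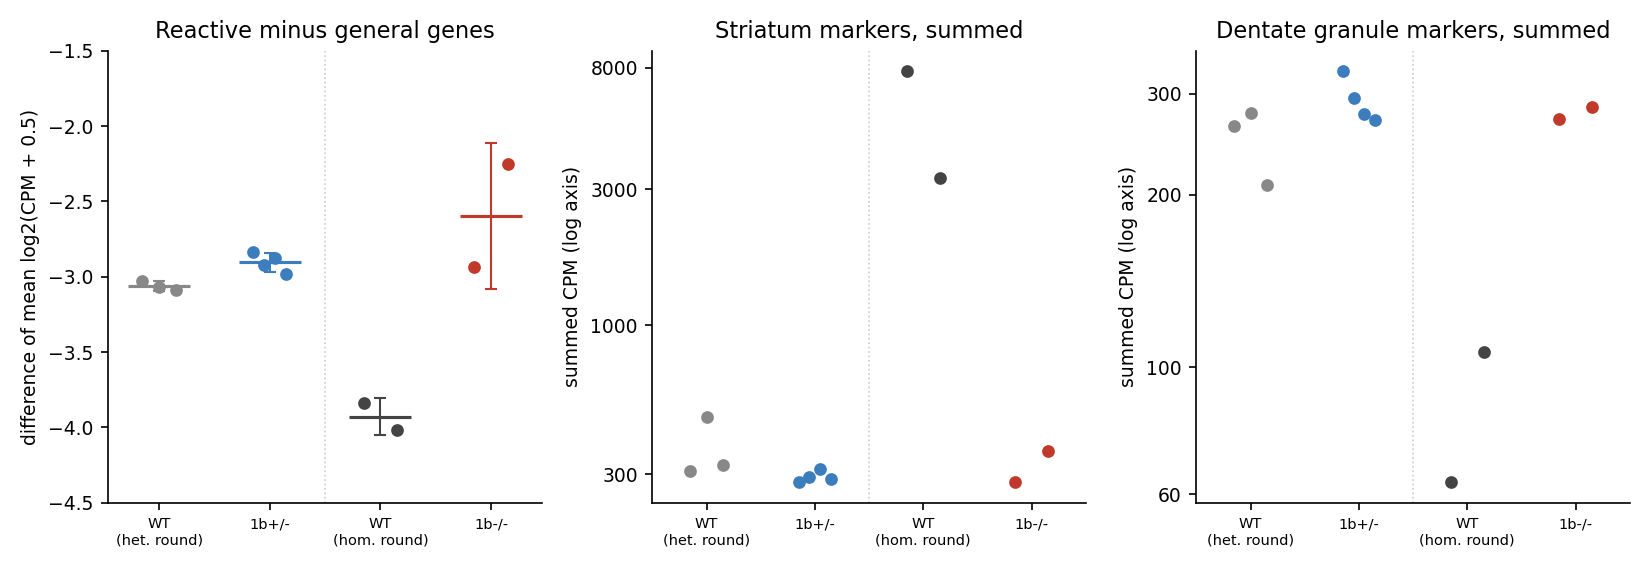
Left, mean log2(CPM + 0.5) of the 6 reactive genes minus that of the 4 general genes, 1 point per mouse, with the group mean and 1 SD; middle and right, summed CPM of striatum markers and of dentate granule cell markers in the same mice, on log axes, with no error bars. The WT mice of the homozygous round are the lowest on the left (-3.84 and -4.02), the highest in striatum markers (3294 to 7780 CPM) and the lowest in dentate markers (63.0 to 106.5 CPM).

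Other reactive genes were read in 1b-/- mice beside all genes tested, of which 2.06% passed higher and 1.52% lower. Of 6 tested pan-reactive genes beyond the 10 (8 were listed), none passed in either direction, and their median log2 fold change was -0.01. Among them Lcn2, a secreted iron-binding protein of acute inflammation, was at 6.19 and 0.251 CPM in the 1b-/- mice, or 218 and 8 counts, and at 1 and 0 counts in their WT mice (edgeR adjusted p = 0.127). The Lcn2 level was thus high in the first 1b-/- mouse only, whereas Serpina3n and Gfap were higher in the second. Hspb1, a small heat shock protein, had a log2 fold change of -0.64 (SE 0.40, edgeR adjusted p = 0.360).

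Of 11 A1-type genes, a set linked to astrocytes exposed to inflammatory signals, 1 was higher and none lower, with a median log2 fold change of 0.07. The gene that rose was Serping1, the C1 inhibitor of complement, at 10.8 and 13.4 CPM against 3.79 and 3.98 CPM (log2 fold change 1.63, SE 0.21, edgeR adjusted p = 0.0307). H2-T23, an MHC class I gene of the same set, was lower in level, at 7.53 and 6.87 CPM against 13.1 and 15.3 CPM, and did not pass (log2 fold change -0.98, SE 0.19, edgeR adjusted p = 0.0584). Of 10 tested A2-type genes, a set linked to ischaemia, 1 was higher and none lower, with a median of 0.11. It was Cd109, a membrane-anchored protease inhibitor, at 6.90 and 11.3 CPM against 1.13 and 1.64 CPM (log2 fold change 2.71, SE 0.38, edgeR adjusted p = 0.0338). Ptgs2, the inducible cyclooxygenase that neurons also make, had a log2 fold change of 2.10 (SE 0.69, edgeR adjusted p = 0.142). For comparison, WT mice of the heterozygous round had 6.48 to 8.64 CPM of Serping1 and 5.34 to 7.61 CPM of Cd109. With any 1 library of the homozygous round left out, which leaves 1 library in a group, the log2 fold change was 1.47 to 1.78 for Serping1 and 2.32 to 3.02 for Cd109. Serping1 passed in 1 of these 4 fits and Cd109 in 2.

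Of 12 tested genes for oncostatin M, LIF and interleukin-6 signalling, none was higher and 1 was lower, with a median log2 fold change of 0.12. The gene that fell was Jak2, a kinase of the pathway, at 36.8 and 32.4 CPM in 1b-/- mice against 68.5 and 64.9 CPM in WT mice (log2 fold change -0.95, SE 0.13, edgeR adjusted p = 0.0329). With 1 library left out it was -1.04 to -0.86, and it passed in 1 of the 4 fits. Pias3, an inhibitor of STAT3, was at 0.68 (SE 0.15, edgeR adjusted p = 0.0766). Stat3 itself was at 0.04, its feedback inhibitor Socs3 at 0.05 and the shared receptor subunit Il6st at -0.13 on the log2 scale (edgeR adjusted p = 0.881, 0.954 and 0.487).

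Of the 4 filament partners of Gfap and Vim, none passed. Nes, the nestin of progenitors and reactive astrocytes, was at 8.30 and 11.5 CPM in 1b-/- mice against 25.1 and 13.9 CPM in WT mice, below in both mice (log2 fold change -0.98, SE 0.34, edgeR adjusted p = 0.154). Synm, another filament protein of astrocytes, was at 0.19 on the log2 scale (SE 0.14, edgeR adjusted p = 0.411). Among 8 tested complement genes near C4b in function, none passed and the median was 0.23. C3, the central complement protein, was at 1.73 and 2.98 CPM against 0.361 and 0.609 CPM (log2 fold change 2.27, SE 0.56, edgeR adjusted p = 0.0893), and C2, the partner of C4 in the C3 convertase, had a log2 fold change of 1.19 (SE 0.44, edgeR adjusted p = 0.168).

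Most general astrocyte genes beyond the 4 did not pass either, and of all genes tested 3.58% passed. Of 25 tested, none was higher and 1 was lower, with a median log2 fold change of 0.07. The gene that fell was Kcnj10, the potassium channel by which astrocytes buffer potassium, at 294 and 268 CPM in 1b-/- mice against 467 and 488 CPM in WT mice (log2 fold change -0.76, SE 0.13, edgeR adjusted p = 0.0494). With 1 library left out it was -0.83 to -0.70, and it passed in none of the 4 fits (edgeR adjusted p 0.102 to 0.199). In the heterozygous round Kcnj10 ran from 235 to 377 CPM in WT mice and from 276 to 367 CPM in 1b+/- mice, ranges that overlap. Both take in the 294 CPM of the first 1b-/- mouse, and the WT range also takes in the 268 CPM of the second. Against those WT mice, across rounds, the log2 difference of the 1b-/- mice was -0.09 (SE 0.19, edgeR adjusted p = 0.720). The glutamate transporters Slc1a2 and Slc1a3 were at -0.14 and 0.01 on the log2 scale (edgeR adjusted p = 0.72 and 0.978). Glul, the glutamine synthetase that handles the glutamate they take up, was at -0.32, and Gjb6, the second astrocyte connexin, at -0.04 (edgeR adjusted p = 0.464 and 0.940). Id3 and Sox9, transcription regulators of astrocytes, were at 0.54 and 0.39 and did not pass (edgeR adjusted p = 0.106 and 0.114).

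In 1b+/- mice no gene of these lists passed the test, beside 0% of all genes tested. The medians ran from -0.04 for the complement genes to 0.08 for the filament partners, and the smallest p in the 7 lists belonged to Amigo2, an adhesion protein of the A1-type list (log2 fold change -0.29, SE 0.08, edgeR adjusted p = 0.246), and Plec, the filament crosslinker plectin (0.16, SE 0.04, edgeR adjusted p = 0.246).

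Markers of other cells and regions moved with the homozygous comparison (sums are over genes held by both tables). The counts given are of genes that passed the test, beside 2.06% of all genes tested that passed higher and 1.52% lower. Striatum markers were lower in 1b-/- mice for 10 of 11 tested genes, with a median log2 fold change of -4.41, while 3 of 6 dentate granule cell and 4 of 8 CA1 and CA3 genes were higher. Radial glia-like and immature neuron genes, some of which dentate progenitors share with astrocytes, were higher for 2 of 8, with a summed level of 232 to 240.5 CPM in 1b-/- mice and 101 to 130 CPM in their WT mice. Meninges and fibroblast genes were higher for 1 of 7, at 256 to 695 CPM against 84.4 to 286 CPM. Choroid plexus genes summed to 63.0 to 13290 CPM in 1b-/- mice and to 53.4 to 3385 CPM in WT mice, and none of 7 passed. Ependymal genes, from cells that also make Vim, summed to 25.7 to 71.7 CPM against 42.2 to 43.0 CPM, and none of 6 passed. Endothelial and mural genes, from vessel cells that also make Vim, summed to 210 to 226 CPM against 278 to 331 CPM, and none of 10 passed. None of the 10 microglia genes passed, and their sum was lower in 1b-/- mice (534 to 647 CPM) than in WT mice (712 to 715 CPM). Oligodendrocyte genes were lower for 2 of 10, at 12410 to 14330 CPM against 18160 to 24250 CPM. No marker in these lists was at 0 in any library. In 1b+/- mice no marker passed, beside 0% of all genes tested. All 10 oligodendrocyte genes had log2 fold changes above 0, with a median of 0.36, and the median of 11 striatum genes was -0.49. The part of these cells and regions in the levels of the 10 astrocyte genes was not tested.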

How the data were processed

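Processing, per the labels, the submitters' processing notes and the study's methods: microdissected P32 hippocampus, stranded mRNA libraries, reads aligned to mm9 with STAR 2.7.2 and counted per gene by featureCounts (strand setting not given in the sources used here). The deposited tables hold raw counts from the authors, 1 column per library; columns were matched to samples by name, since the labels give the 2 table names the other way round. Labels call the mice adult, and the age P32 comes from the methods. The P7 forebrain was not analysed here. Of the symbols, 27 in either table were turned into dates (0.2999% to 0.3718% of counts); these carried no member.

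Genes that reached 1 CPM in any library were tested by edgeR 4.0.16 (R 4.3.3; TMM, quasi-likelihood test, Benjamini-Hochberg adjustment over all genes tested, threshold 0.05), each mutant against its own round's WT mice, genotype as the only term. The difference between genotypes was a contrast in 1 fit of all 11 libraries and genes held by both tables. All 10 members passed the filter in every fit. The per-mouse CPM use TMM factors within a round; RPKM use exon lengths of the mm9 annotation. Intervals are 95%. The code was tested on simulated data.

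Members and gene lists were chosen with earlier results of these data known. Named in full were the 10 members and Scn1a, and, of each astrocyte-related list, up to 4 genes by the smallest p in the homozygous comparison (2 genes over the 7 lists in the heterozygous one) plus preset comparators (C4a, Stat3, Socs3, Il6st, Slc1a2, Slc1a3, Glul, Gjb6). Lists of other cells and regions are given by counts and sums only, although the rule would name 2 genes of each. Xist and Ddx3y matched the labelled sex in 11 of 11 libraries. Replicates differed by more than sampling noise (chi-square per gene of 6.198 to 82.22), and all were kept. Replicates are separate mice. Alternatives were a likelihood ratio test, DESeq2 1.42.0, RLE or upper-quartile factors, other filters, a term for sex, 1 fit of all libraries, each library left out, and the 1b-/- mice against the other WT mice (added later).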

Additional observations from a re-analysis of the deposited data

Results flagged for a closer look

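The change of Serpina3n differed between the 2 mutants by 3.4 on the log2 scale, that of Gfap by 1.81 and that of C4b by 0.8, each by the direct edgeR test of the difference (adjusted p = 3.3e-04, 0.00152 and 0.0262). In each gene the change was larger in 1b-/- mice. Of all 14905 genes tested, 27.3% passed this test, and 14.3% passed in that direction. The test takes in the WT mice of the homozygous round, which stood apart. Gfap in the fourth 1b+/- mouse, the only female of the 4, was 318.8 CPM, below the other 3 at 352 to 357 CPM. C4b in the first 1b+/- mouse was 33.0 CPM, above the other 3, which were all at 27.9 CPM. In each case the gap was past Dixon's 95% critical value for 4 samples. Chance alone puts about 1 in 20 such groups past it, and the 10 genes were each read in that group.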

How the results depend on the processing

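Homozygous values rest on 2 mice a group and on WT mice whose region markers stood apart. No paired analysis was possible because the labels give the groups no shared replicate numbers. Lcn2 had 0 to 12 counts in all libraries but 1. With 1 library of the homozygous round left out, 1 group held a single library, assumed to vary like the other.

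The count of genes past the threshold in the heterozygous comparison, 0, became 191 with the likelihood ratio test, 245 with DESeq2, 44 with no filter, and 0 to 421 with 1 library left out (421 without the first WT mouse, 1 without the third 1b+/- mouse). The homozygous count, 531, became 1829, 2144 and 1029 in that order, 5541 with all libraries in 1 fit, 7774 against the other round's WT mice, and 0 to 693 with 1 library left out (0 without the first WT mouse, 192 without the second). The 1 reactive gene called became 3, 3 and 2 in that order, 4 with sex as a covariate, 4 in 1 fit and 3 against the other WT mice, where 3 general genes were called, and 0 to 3 with 1 library left out. In the homozygous comparison the sex term took up the first 1b-/- mouse, the only male of that round. The genotype change with that term therefore rested on the second 1b-/- mouse against the 2 WT mice. The number of all genes that passed with that term is not given here, so the 4 reactive genes have no share beside them. In the main fit of the difference no general gene was called, beside 27.3% of all genes tested. Aldh1l1, Aldoc and Gja1 were each called under 1 of its 18 alternatives. With Cd44 and Osmr left out, the reactive minus general gap went from 0.158 to 0.102 (heterozygous) and from 1.33 to 1.70 (homozygous). The cause was not tested.

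Signs turned as follows, on the log2 scale, none for a value that had passed the test. In the homozygous comparison Aldoc was at 0.0006 with DESeq2 and with RLE factors, at 0.0028 with no filter and from -0.30 to 0.24 with 1 library left out, and Gja1 was at -0.10 with sex as a covariate and from -0.10 to 0.29. Against the other WT mice Cd44 was -0.58, Osmr -0.28, Aqp4 -0.47, Aldh1l1 0.10, Gja1 -0.31 and Aldoc 0.60. In the heterozygous comparison, leaving 1 library out moved Osmr from -0.15 to 0.12, Gfap from -0.034 to 0.10 and Vim from -0.057 to 0.11. In the difference Cd44 was -0.067 with sex as a covariate and from -0.25 to 0.89 with 1 left out, Gja1 from -0.031 to 0.39 and Aldoc from -0.36 to 0.20.

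Serpina3n in the homozygous comparison was called under 10 of 12 alternatives (log2 fold change 2.87 to 3.98), Gfap under 7 (edgeR or DESeq2 adjusted p from 1.8e-08 to 0.155), C4b under 4 and Vim under 3. In the difference, Serpina3n and Gfap were called under 18 of 18 alternatives, C4b under 13 and Vim under 4. In the main fit of the difference 27.3% of all genes tested passed. Each alternative to it still subtracted WT mice of the homozygous round, which stood apart. No member was called in the heterozygous comparison under any of its 15 alternatives.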
